A study of Mus musculus with 6 samples.

Results

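The genes described here encode a contractile and adhesion cytoskeleton of the kind found in smooth muscle: Acta2, Tagln, Cnn1, Cnn2, Tpm1, Tpm2, Myl9, Vcl, Actn1 and Flna. Members were all probe sets that the array's annotation assigns to exactly 1 of these 10 symbols, which gave 14 of 12422 non-control probe sets, and each of the 10 genes had at least 1. Signals came from 6 arrays of total RNA of C2AS12 cells, mouse myoblasts of the C2 lineage. The cells had been infected with recombinant adenovirus that encodes p300, a coactivator of transcription that acetylates histones. The 3 treatments were wild-type p300, the same virus plus doxycycline, and mutant p300, each with 1 array at 0 h, before differentiation medium was added, and 1 array after 24 h in that low-serum medium. According to the series' design text the cells survive with wild-type p300 and die by apoptosis in both other treatments. All groups carry a p300 virus, and no uninfected cells and no cells kept for 24 h without the medium change were measured. The labels name neither the mutation, the promoter in the virus nor the action of doxycycline, and do not say whether an array holds 1 culture or a pool.

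Smooth muscle-type contraction rests on actin filaments that myosin pulls on once its regulatory light chain is phosphorylated. Tropomyosins and calponins lie along these filaments, transgelin and filamin bundle or crosslink them, and alpha-actinin and vinculin tie them to sites of adhesion. Myoblasts use parts of this machinery before they build sarcomeres, and serum response factor (SRF), with cofactors that sense free actin, is a well-known activator of many of these genes through a DNA element called the CArG box.

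The label of a smooth muscle-like state was checked against markers. Of 7 markers of vascular smooth muscle, 5 had a probe set. Myh11, the smooth muscle myosin heavy chain, read at most 12.8 and Kcnmb1, a potassium channel subunit, at most 5.2. Both lay under 16.4, the signal that served as the floor, on all 6 arrays. The other 3 were above it on all arrays. Actg2, the smooth muscle gamma-actin, read between 237.8 and 464.6, Mylk, the myosin light chain kinase, between 166.3 and 241.3, and Smtn, smoothelin, between 57.8 and 238.9. The Actg2 probe set is of the _f_at kind, shared by a gene family, and how far it reads RNA of other actins was not tested. Cnn1, the calponin of differentiated smooth muscle, also stayed under the floor. With its markers split in this way, the set is named here by its genes and not as a cell type. Of 9 myoblast markers, 8 had a probe set and 0 were under the floor on all arrays. Myod1, the myogenic determination factor, read between 419.1 and 813.0. Of 8 fibroblast markers, 1, Thy1, was under the floor on all arrays, and Lum read at most 49.8. The brightest were S100a4, between 5640.4 and 6639.2, and Col1a2, between 3505.0 and 5416.6. The summed signal of the fibroblast markers lay between 11872 and 14316 at 0 h and between 16889 and 18502 at 24 h. That of the endothelial markers at 24 h was 252.9 for wild-type p300, against 74.9 to 143.3 on the other 5 arrays of both times. Most of this excess came from a single gene, Tek, which read 116.3 on that array and between 2.8 and 19.5 on the other 5. Of the 6 endothelial markers, 0 were bright enough to enter the tests below, so the sum is not read as a sign of endothelial cells. Of the 8 macrophage and leukocyte markers, 4, including Ptprc, were under the floor on all arrays. Others were above it on all arrays, Cd14 between 322.4 and 416.6 and Cd68 between 103.9 and 173.0. For epithelium 1 of 6 markers, and for adipocytes 0 of 5, were under the floor on all arrays. Only 1 of the 6 epithelial and 2 of the 5 adipocyte markers were bright enough to enter the tests below. Cdh1 of the first list read between 142.7 and 230.8, and its other markers at most 72.9. Of the second, Cebpa read between 838.3 and 1011.9 and Lpl between 146.3 and 293.4, while Fabp4, Adipoq and Pparg read at most 73.9. The part of other cell types in the results was not tested.

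The promoters of the members that rose, or that hold a CArG box, are shown because SRF is the factor best known to join these genes. The RefSeq table for GRCm38.p6 held 1 promoter for 9 of the 10 members; Tagln had no entry. The 250 bases before each start were searched on both strands for 4 motifs. These were the CArG box, CATTCC (the MCAT element bound by TEAD factors), TATAAA, and, added after the sequences were seen, a CArG box with 1 G or C in its A/T core. Capitals mark the matches. The stretches lie at chr19:34255374-34255623 (minus strand) for Acta2, chr4:43523555-43523804 (minus strand) for Tpm2 and chr2:156775214-156775463 (plus strand) for Myl9. Those of Cnn2 and Vcl lie at chr10:79988350-79988599 and chr14:20929148-20929397, both on the plus strand.
Acta2: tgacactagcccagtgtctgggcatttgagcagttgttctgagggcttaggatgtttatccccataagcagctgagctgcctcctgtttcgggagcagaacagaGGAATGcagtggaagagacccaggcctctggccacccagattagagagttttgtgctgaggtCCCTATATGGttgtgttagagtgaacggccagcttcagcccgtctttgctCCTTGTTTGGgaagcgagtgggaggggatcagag
Tpm2: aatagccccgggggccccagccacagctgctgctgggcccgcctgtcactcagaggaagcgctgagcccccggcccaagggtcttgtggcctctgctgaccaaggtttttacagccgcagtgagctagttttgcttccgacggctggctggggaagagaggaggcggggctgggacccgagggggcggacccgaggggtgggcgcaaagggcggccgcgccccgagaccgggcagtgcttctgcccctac
Myl9: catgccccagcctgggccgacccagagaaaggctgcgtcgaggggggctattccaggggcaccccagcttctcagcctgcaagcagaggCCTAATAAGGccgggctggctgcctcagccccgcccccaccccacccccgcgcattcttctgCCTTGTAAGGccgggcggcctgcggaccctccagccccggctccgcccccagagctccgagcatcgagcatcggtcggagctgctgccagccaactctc
Cnn2: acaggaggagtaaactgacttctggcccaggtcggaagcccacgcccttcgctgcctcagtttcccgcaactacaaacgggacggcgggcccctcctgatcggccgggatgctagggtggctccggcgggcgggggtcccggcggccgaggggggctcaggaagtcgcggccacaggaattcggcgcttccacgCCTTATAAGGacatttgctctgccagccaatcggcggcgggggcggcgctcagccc
Vcl: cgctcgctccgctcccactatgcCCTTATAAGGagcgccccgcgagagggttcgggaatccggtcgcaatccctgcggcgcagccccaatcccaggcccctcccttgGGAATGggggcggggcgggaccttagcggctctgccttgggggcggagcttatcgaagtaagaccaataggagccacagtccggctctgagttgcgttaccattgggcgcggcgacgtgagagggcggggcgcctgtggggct

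A CArG box was found in 3 of the 9 member promoters, those of Cnn2, Myl9 and Vcl, and in 1.47% of all 32851 promoters of that length. Cnn2 and Vcl carry the same letters, CCTTATAAGG, at 56 to 47 and at 227 to 218 bases before the start, and Myl9 carries CCTAATAAGG at 161 to 152. The relaxed form was found in Acta2, with CCCTATATGG at 84 to 75 and CCTTGTTTGG at 34 to 25 bases before the start, and in Myl9, with CCTTGTAAGG at 99 to 90. It was present in 7.24% of all promoters. CATTCC was found in the promoters of Acta2, Flna, Tpm1 and Vcl and in 12.6% of all. TATAAA was found in 0 of the 9 and in 12.4% of all. The Tpm2 promoter held none of the 4 motifs in this window. These matches are descriptions of the letters and do not show binding.

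Of the 14 member probe sets, 11 for 8 genes had a mean signal at or above 75.2, the median of all probe sets, and were tested together with all others that passed, 6212 in all. The other 3 were dim. Cnn1 read between 2.6 and 11.2 and Flna, the actin-crosslinking filamin A, between 3.1 and 15.9, under the floor on all 6 arrays, so that no change can be read from either. A second probe set of Tpm2, 161320_r_at, read between 13.1 and 26.4. Values below the floor were set to it before log2 was taken. Differences were tested with limma, and called means an adjusted p under 0.05.

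**Figure D1:**
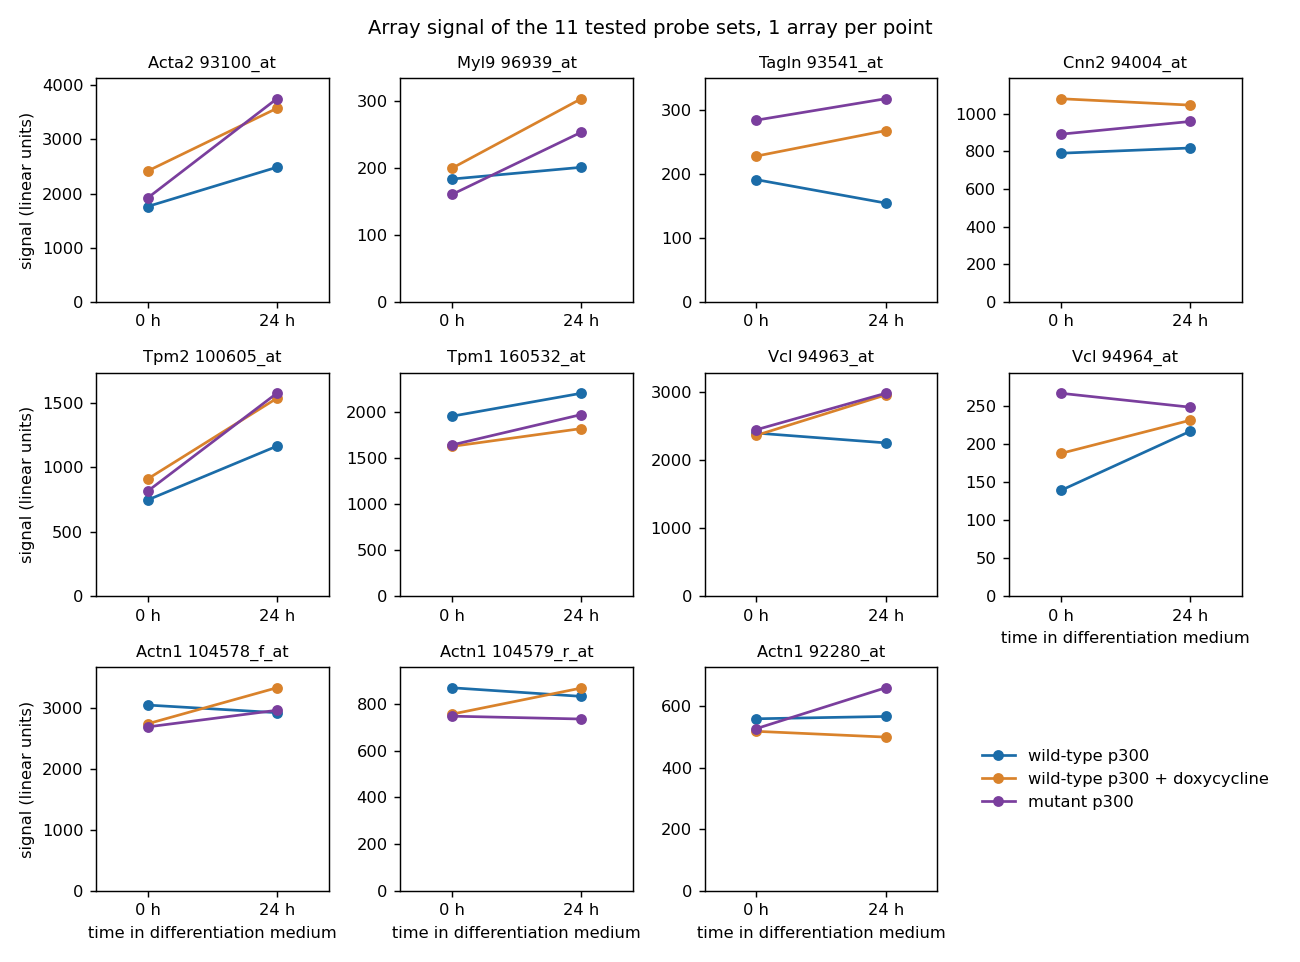
Array signal (vertical axis, linear units, from 0) of the 11 tested probe sets at 0 h and 24 h; each point is 1 array and each line joins the arrays of a treatment. The Acta2, Tpm2 (100605_at), Tpm1 and Myl9 lines rise in all 3 treatments, 4 of 11 against 25.5% of all tested. The wild-type p300 line lies lowest at both times for Acta2, Tpm2, Tagln, Cnn2 and Vcl 94964_at and highest for Tpm1.

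Arrays at 24 h were set against those at 0 h to see how the cytoskeleton genes responded to differentiation medium. Acta2 and Tpm2 rose, and the other 9 tested probe sets, of Tagln, Cnn2, Tpm1, Myl9, Vcl and Actn1, did not pass the test. Thus 2 of 11 member probe sets were called higher and 0 lower by limma, against 7.24% called higher and 9% called lower of all tested (16.2% either way). Before adjustment, 3 members were higher and 0 lower at p under 0.05, against 15.1% and 16.4% of all. The fitted difference was above 0 for 11 of 11 member probe sets with a median of 0.17, beside a median of 0.005 over all tested. When all arrays were scaled to 9 spike-in controls, that median over all moved from 0.005 to -0.12, and 5 of the 11 turned below 0: all 3 of Actn1, and those of Tagln and Cnn2.

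Acta2, the smooth muscle alpha-actin, read 1760.5 for wild-type p300, 2416.5 for doxycycline and 1918.0 for mutant p300 at 0 h. At 24 h it read 2486.3, 3575.7 and 3753.2 in the same order. All 3 arrays at 24 h lay above all 3 at 0 h, which held for 3 of 11 member probe sets and for 12.7% of all tested. The signal rose 1.41-fold, 1.48-fold and 1.96-fold in the 3 treatments, a mean log2 change of 0.68 ± 0.25 (SD, n = 3 treatments; limma adjusted p = 0.0055). Acta1, the skeletal actin of very similar sequence, rose too, by 1.15 ± 0.36, and how far the Acta2 probe set also binds RNA of other actins was not tested.

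Tpm2, beta-tropomyosin, read 747.1, 910.1 and 815.3 at 0 h and 1164.8, 1536.1 and 1575.3 at 24 h, for wild-type p300, doxycycline and mutant p300. All 3 arrays at 24 h again lay above all 3 at 0 h. The rise was 1.56-fold, 1.69-fold and 1.93-fold, a mean log2 change of 0.78 ± 0.16 (limma adjusted p = 0.00119). Its dim second probe set changed by -0.66, -0.09 and 0.40 on the log2 scale, in different directions, near the floor. Neither call held when the dim probe sets were kept in the test. There limma adjusted p was 0.114 for Tpm2 and 0.2 for Acta2 at the same differences, and 0 of 12422 were called (2030 before adjustment at p under 0.05). That test also holds probe sets at the floor on all arrays, such as those of Cnn1 and Flna, which show no spread. How far these shifted it was not tested.

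Myl9, the regulatory light chain of smooth and non-muscle myosin, read 183.2, 199.4 and 160.2 at 0 h and 200.7, 303.1 and 253.1 at 24 h. The 24 h arrays lay above the 0 h arrays, though the wild-type array at 24 h (200.7) was close to the doxycycline array at 0 h (199.4). The log2 change was 0.13 for wild-type p300, 0.60 for doxycycline and 0.66 for mutant p300, a mean of 0.47 ± 0.29 (limma adjusted p = 0.0587). It missed the threshold. Without the wild-type array of 0 h, or without that of 24 h, the mean was 0.63 and passed the threshold. Both are the same estimate, from the doxycycline and mutant changes alone. With treatment as a block, a lone wild-type array has no bearing on the time effect.

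Tpm1, alpha-tropomyosin, did not pass, although its changes were close in the 3 treatments. It read 1949.9, 1623.0 and 1638.7 at 0 h and 2198.4, 1815.8 and 1967.4 at 24 h, a mean log2 change of 0.20 ± 0.06 (limma adjusted p = 0.159). The times overlapped, since the doxycycline array at 24 h lay below the wild-type array at 0 h. Cnn2, the broadly expressed calponin, read 790.7, 1080.8 and 892.0 at 0 h and 818.5, 1046.9 and 959.7 at 24 h. Its mean change was 0.04 ± 0.08 (adjusted p = 0.824), smaller than the distance between treatments at either time.

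Tagln, transgelin or SM22, an actin-binding protein that is an early marker of smooth muscle differentiation, read 190.5, 227.3 and 283.4 at 0 h and 154.0, 267.0 and 316.8 at 24 h. The changes were -0.31, 0.23 and 0.16 in that order, down for wild-type p300 and up for the others, so the mean was 0.03 ± 0.29 (limma adjusted p = 0.919).

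Vcl, vinculin, links integrin complexes to actin and had 2 tested probe sets that differed. Probe set 94963_at read 2400.3, 2367.4 and 2449.8 at 0 h, nearly level over the treatments. At 24 h it read 2256.2, 2960.8 and 2985.8, lowest for wild-type p300. The changes were -0.09, 0.32 and 0.29, a mean of 0.17 ± 0.23 (limma adjusted p = 0.328). Probe set 94964_at read 139.3, 188.0 and 267.2 at 0 h and 217.1, 231.6 and 248.9 at 24 h. There the change was highest for wild-type p300, 0.64, against 0.30 for doxycycline and -0.10 for mutant p300 (mean 0.28 ± 0.37, adjusted p = 0.268). The probe sets thus went in opposite directions for wild-type and mutant p300 and rose alike with doxycycline.

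Actn1, non-muscle alpha-actinin, had 3 tested probe sets, none of which was called. Probe set 92280_at read between 500.2 and 660.7, 104578_f_at between 2696.1 and 3340.1 and 104579_r_at between 735.7 and 869.5. The name endings _f_at and _r_at mark probe sets shared by a gene family or designed with relaxed rules. Their mean changes were 0.10 ± 0.20, 0.12 ± 0.17 and 0.04 ± 0.14, with limma adjusted p between 0.475 and 0.832. The highest signal was 1.18 to 1.32 times the lowest over the 6 arrays.

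**Figure D2:**
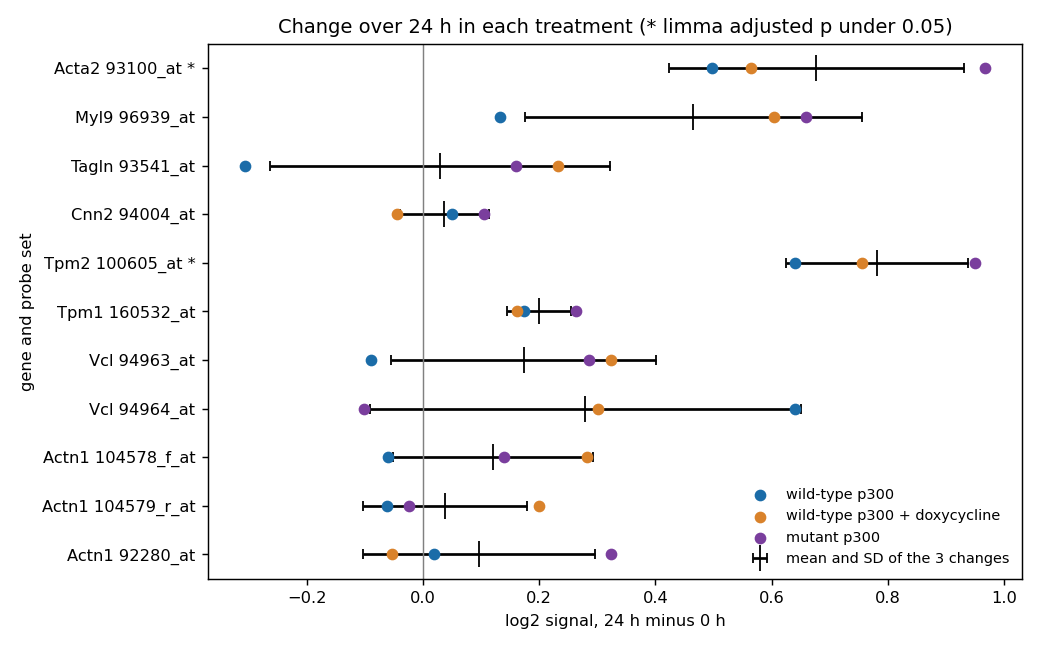
Difference in log2 signal between 24 h and 0 h (horizontal axis) for the 11 tested probe sets; coloured points are the 3 treatments, the tick and bar give their mean and SD, and a star marks a limma adjusted p under 0.05. Acta2 (mean 0.68) and Tpm2 (mean 0.78) are starred, and the wild-type p300 point lies left of the other treatments for Acta2, Myl9, Tagln, Tpm2, Vcl 94963_at and both suffixed Actn1 probe sets.

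Wild-type p300 was then set against both other treatments, that is, the treatment given as ending in survival against those given as ending in death. The 0 h arrays come before differentiation medium was added, and outcome cannot be told apart from the treatments themselves. Tagln, Acta2, Tpm2, Cnn2 and 1 of the Vcl probe sets (94964_at) read lowest with wild-type p300 at both times and Tpm1 highest, but none passed the test. By limma 0 of 11 member probe sets were called at 24 h, against 0.773% of all tested, and 0 over both times, against 0.531%. At an unadjusted p under 0.05, 0 members were higher and 4 lower with wild-type p300 at 24 h (5.91% and 5.57% of all), namely Tagln, Acta2, Vcl 94963_at and Tpm2. Over both times 1 was higher, Tpm1, and 4 were lower, Tagln, Acta2, Tpm2 and Cnn2 (6.97% and 6.75% of all). The median difference of the members at 24 h was -0.29, beside -0.04 over all tested, and 9 of 11 were below 0. With spike-in scaling the median over all was 0.32 and that of the members 0.07. The test rests on 1 wild-type array a time, assumed to vary like the doxycycline and mutant arrays. Over both times, the 0 h and 24 h arrays of a treatment were taken as independent.

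The wild-type array was the lowest of the 3 at both times for 5 of 11 member probe sets, against 20.4% of all tested. These were Acta2, Tpm2 (100605_at), Tagln, Cnn2 and Vcl 94964_at. At 24 h alone it was the lowest for 8 of 11, against 39.6% of all, and at 0 h for 5 of 11, against 37%. Tpm1 went the other way: its wild-type array was the highest at both times, 1 of 11 against 14.6%.

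Tagln had the largest difference of the tested members at 24 h. Its wild-type signal then was 0.577 of that with doxycycline and 0.486 of that with mutant p300, while at 0 h the ratios were 0.838 and 0.672. The log2 difference was -0.92 ± 0.23 at 24 h (fitted value ± SE; limma adjusted p = 0.154) and -0.67 ± 0.17 over both times (adjusted p = 0.129). The difference of doxycycline minus mutant was -0.32 at 0 h and -0.25 at 24 h, so the 3 treatments kept 1 order. Without the doxycycline array at 24 h the difference there was -1.04 with adjusted p = 0.0284, a call that rests on single arrays; with spike-in scaling it was -0.55 (adjusted p = 0.231).

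For Acta2 the wild-type signal at 24 h was 0.695 of that with doxycycline and 0.662 of that with mutant p300, whose arrays differed little from each other (ratio 0.953). At 0 h the wild-type signal was 0.729 and 0.918 of the others. The log2 difference was -0.56 ± 0.18 at 24 h (limma adjusted p = 0.27) and -0.29 ± 0.18 at 0 h (adjusted p = 0.999). Tpm2 had a like order, with ratios of 0.758 and 0.739 at 24 h, 0.821 and 0.916 at 0 h, and a difference of -0.42 ± 0.16 at 24 h (adjusted p = 0.364). With spike-in scaling the differences at 24 h shrank to -0.19 for Acta2 and -0.05 for Tpm2. The 3' to 5' signal ratio of the beta-actin controls, a reading of RNA quality, also differed at 24 h, with 1.33 for wild-type p300, 1.45 for doxycycline and 1.49 for mutant p300. At 0 h it was 1.30 to 1.34. The same ratio of the GAPDH controls was 0.875, 0.859 and 0.905 at 24 h in that order, and 0.855 to 0.867 at 0 h. The part of RNA quality in these results was not tested.

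Vcl 94963_at showed its treatments apart at 24 h, where the wild-type signal was 0.762 and 0.756 of the others and those were level (ratio 0.992). At 0 h all 3 were level, with ratios of 1.01 and 0.98. The log2 difference was -0.40 ± 0.15 at 24 h (limma adjusted p = 0.358), -0.005 ± 0.15 at 0 h, and -0.03 at 24 h with spike-in scaling. Myl9 at 24 h had ratios of 0.662 and 0.793 and a difference of -0.46 ± 0.24 (adjusted p = 0.514). At 0 h its wild-type array lay between the others.

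Cnn2 differed in the same way at both times. The wild-type signal was 0.732 and 0.886 of the doxycycline and mutant signals at 0 h and 0.782 and 0.853 at 24 h, a difference of -0.30 ± 0.12 over both times (limma adjusted p = 0.298). At 24 h the difference was -0.29, or 0.07 with spike-in scaling. The doxycycline array was the highest of the 3 at both times.

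Tpm1 read higher with wild-type p300, 1.20 and 1.19 times the other signals at 0 h and 1.21 and 1.12 times at 24 h. Over both times the difference was 0.24 ± 0.10 (limma adjusted p = 0.33). With spike-in scaling it was called at 24 h, at 0.58 with adjusted p = 0.0379. The tropomyosin genes thus lay on opposite sides of 0 over both times, Tpm1 at 0.24 and Tpm2 at -0.31, and the difference between them was not tested. The Actn1 probe sets had differences between -0.10 and 0.06 at 24 h, within their SE of 0.16 to 0.20. That of 104578_f_at was -0.10 at 24 h and 0.17 at 0 h.

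**Figure D3:**
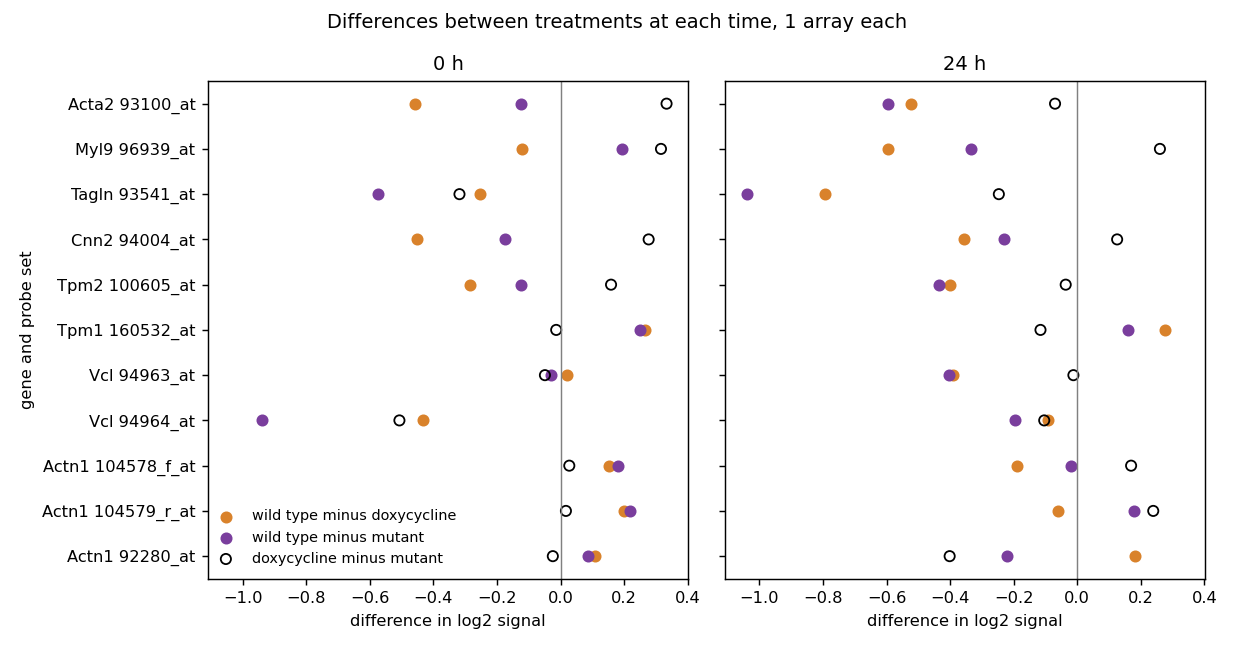
Difference in log2 signal between pairs of treatments (horizontal axis) at 0 h and 24 h for the 11 tested probe sets, with 1 array for each treatment and time; filled points are wild-type p300 minus each other treatment, open points doxycycline minus mutant. At 24 h both filled points lie below 0 for 8 probe sets, furthest for Tagln at -0.79 and -1.04, and above 0 for Tpm1.

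Whether the difference between wild-type p300 and the other treatments changed over time was tested as an interaction. By limma 0 of 11 member probe sets and 0% of all tested were called, with 0 members at an unadjusted p under 0.05 (1.69% of all higher and 1.48% lower). The values closest to it were those of Vcl 94963_at at -0.39 ± 0.22, with an unadjusted p of 0.102, and of Tagln at -0.50 ± 0.33 (0.163). For Myl9 it was -0.50 ± 0.34 and for Vcl 94964_at 0.54 ± 0.36. With SEs of 0.22 to 0.36 this does not show that the changes were equal. At 0 h, too, 0 of 11 member probe sets and 0% of all were called by limma. There 1 member, Vcl 94964_at at -0.69 ± 0.26, had an unadjusted p under 0.05 (0.0268), against 2.59% of all higher and 1.63% lower. For Tagln, Vcl 94963_at and Actn1 104578_f_at, 3 of 11, the wild-type change over 24 h had the sign opposite to both others, as it did for 17.7% of all tested.

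Doxycycline and mutant p300, both given as ending in death, had 1 array each and were not tested. At 24 h the doxycycline signal was 0.953 of the mutant signal for Acta2, 0.975 for Tpm2, 0.992 for Vcl 94963_at and 0.923 for Tpm1. It was 1.20 for Myl9, 1.09 for Cnn2, 0.843 for Tagln and 0.757 for Actn1 92280_at. At 0 h the largest gaps were at Vcl 94964_at, with a ratio of 0.704, Acta2 at 1.26, Tagln at 0.802 and Myl9 at 1.24, among the tested probe sets. The ratio of Acta2 was above 1 at 0 h and below 1 at 24 h.

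Related genes were followed in 4 lists, with the probe set of highest mean signal for each gene. Striated counterparts of the members, a list that also holds troponins, which match no member, had the largest median change of the 4. Of 23 genes on the array, 10 had a mean signal at or above 75.2 and were tested. Of these 8 rose, 0 fell and 2 did not pass by limma, against 7.24% called higher and 9% lower of all tested. The median change was 0.98 beside 0.005 over all tested. As that mean spans both times, a gene dim at 0 h could be tested because of its 24 h signal. Tnnt1, slow troponin T, read 38.1, 115.9 and 33.7 at 0 h, for wild-type p300, doxycycline and mutant p300. It rose by 2.70 ± 0.43, Myl1, a fast myosin light chain, by 2.68 ± 0.50 and Acta1 by 1.15 ± 0.36 (SD, n = 3 treatments). The smallest rises called in this list were those of Tnni1 at 0.48 and Mylpf at 0.64, named after their values were seen, so the 0.68 of Acta2 and 0.78 of Tpm2 lay within the list's range.

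Of 13 other smooth muscle contractile genes, 2 rose, 1 fell and 10 did not pass, with a median of 0.12. Des, the intermediate filament desmin, rose by 0.46 ± 0.10 and Aebp1 by 0.39 ± 0.10. Tagln2, the broadly expressed relative of Tagln, fell by 0.95 ± 0.22, from 2234.9, 2022.5 and 2102.3 at 0 h to 1294.5, 883.7 and 1159.4 at 24 h. All 3 arrays of Tagln2 at 24 h lay below all at 0 h, while those of Tagln overlapped.

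Of 28 focal adhesion and actin crosslinking genes, 3 rose, 1 fell and 24 did not pass (median 0.07). The integrin gene Itgb5 rose by 0.58 ± 0.28 and the Rac exchange factor gene Arhgef7 by 0.48 ± 0.26, and Pdlim1 fell by 0.53 ± 0.24. The third that rose, Tns2, a tensin, at 0.48 ± 0.12, is named beside its count. Of 30 non-muscle actin, tropomyosin and myosin genes, 2 rose, 1 fell and 27 did not pass (median -0.06). Pfn2, a profilin, rose by 0.92 ± 0.15 and Cfl2, the muscle cofilin, by 0.58 ± 0.15, and Capg, a capping protein, fell by 0.40 ± 0.21.

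For wild-type p300 against the other treatments at 24 h, limma called 0 of the 81 genes in these lists, with 4 higher and 2 lower at an unadjusted p under 0.05. Over all tested, 0.773% were called, and 5.91% were higher and 5.57% lower unadjusted. The largest difference in each list was that of Smtn at 1.37 ± 0.47 (adjusted p = 0.301), Cav1, caveolin, at 0.61 ± 0.19 (0.248), Myl1, at -0.88 ± 0.45 (0.512) and Pfn1, a profilin, at -0.49 ± 0.24 (0.488). Smtn read 238.9, 57.8 and 147.8 for wild-type, doxycycline and mutant arrays, highest with wild-type p300, where Acta2 and Tagln were lowest. Actg2 of the same list, named after its values were seen, was lowest with wild-type p300 at both times. It read 291.1, 464.6 and 388.3 at 0 h and 237.8, 419.0 and 333.8 at 24 h, a difference of -0.65 ± 0.22 at 24 h (limma adjusted p = 0.284), from a probe set of the _f_at kind.

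**Figure D4:**
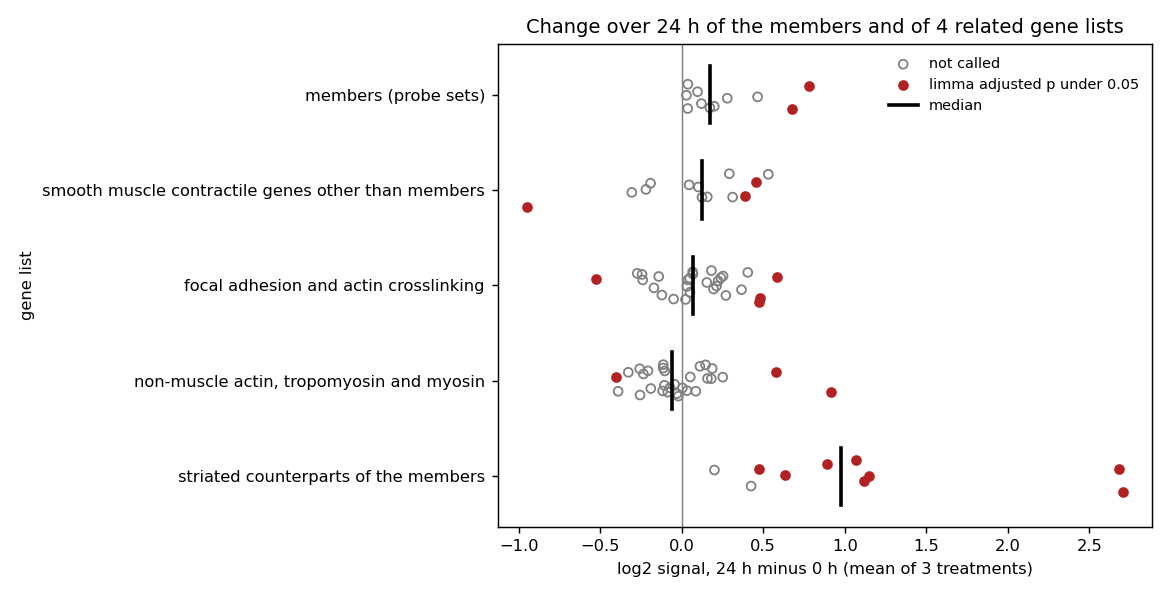
Mean change in log2 signal from 0 h to 24 h over the 3 treatments (horizontal axis) for the 11 member probe sets and for the tested genes of 4 related lists; filled points have a limma adjusted p under 0.05 and the black line is the median. Members centre on 0.17, striated counterparts on 0.98 and the other lists between -0.06 and 0.12.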

How the data were processed

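The deposited values were array signals in linear intensity, made with MAS5 (version not given in the sources used here) per the submitters' processing notes. Among arrays, trimmed means differed by at most 0.228% from their average, so no further scaling was applied. Control probe sets (66) were removed. Symbols came from the array's probe annotation, updated through a RefSeq gene table. Values under the 25th percentile (16.4) were raised to it before taking log2.

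limma 3.58.1 in R 4.3.3 (lmFit, eBayes with a variance trend, 2-sided) was fitted on 6212 probe sets, with Benjamini-Hochberg adjustment over all. Time was fitted with treatment as a block (2 residual degrees of freedom), and outcome over both times with time as a term (3). Outcome at each time and the interaction were fitted with 1 mean for each outcome and time (2). The fit over both times took the arrays of a treatment at 0 h and 24 h as independent. If they are not, its SEs and p-values are too small. Fits were tested on simulated data. The labels name no separate cultures, and p-values then reflect only the spread among these arrays, which may be technical; their number limits the precision.

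Members and lists were chosen with earlier results of these data known. A further list is not reported here. Named were all members and, in each list, up to 3 called genes with the largest change for time and for outcome at 24 h, or, where none was called, the gene with the largest difference. Alternatives were no filter, log2(signal + 50) without a floor, quantile normalization, scaling to 9 spike-in controls, no variance trend, no block, and leaving out each array.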

Additional observations from a re-analysis of the deposited data

Results flagged for a closer look

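For 3 of 11 tested member probe sets the signal changed one way over 24 h with wild-type p300 and the opposite way with both other treatments, against 17.7% of all tested. Tagln changed by -0.31 with wild-type p300, against 0.23 with doxycycline and 0.16 with mutant p300. Vcl 94963_at changed by -0.0893, against 0.32 and 0.29. Actn1 104578_f_at changed by -0.0603, against 0.28 and 0.14. The interaction in limma, which sets the wild-type change against the mean of the others, did not pass for any of the 3, with unadjusted p of 0.163, 0.102 and 0.263. The opposite signs themselves were not tested, with 1 array a point.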

How the results depend on the processing

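The calls of Acta2 and Tpm2 over time held with log2(signal + 50), quantile normalization, spike-in scaling, no variance trend, no replicate block and without each array in turn. Under the block, leaving out either array of a treatment gives the same time estimate, so the leave-outs hold 1 distinct estimate for each treatment. Without the filter 0 of 11 members were called (3 at an unadjusted p under 0.05). The interaction called 0 members in every setting that could be fitted. At 24 h 1 member was called with spike-in scaling, Tpm1, and 0 to 1 without single arrays, that 1 being Tagln without the doxycycline array. Quantile normalization brought Myl9 to a call over time, at 0.49 with adjusted p = 0.0478. Leaving out either wild-type array did so too, at 0.63, the estimate from the doxycycline and mutant changes alone.

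Counts over all probe sets moved more. For time, 1009 were called, 514 with no replicate block (the block joins the arrays of a treatment), 619 with spike-in scaling (141 higher and 478 lower, against 450 and 559), 0 without the filter, and 479 to 1283 without single arrays, with 556 (0 h) and 539 (24 h) when a doxycycline array was left out and 481 and 479 when a mutant array was. For outcome over both times, 33 were called, 10 without the filter, 237 with spike-in scaling, 1 without the variance trend and 0 to 50 without single arrays (leaving out wild type at 24 h gave 0, mutant at 24 h 15, doxycycline at 0 h 15 and at 24 h 50). At 24 h, 48 were called, 192 without the filter, 426 with spike-in scaling, 11 without the variance trend and 45 to 351 without single arrays (leaving out doxycycline at 0 h gave 161 and at 24 h 200, mutant 163 and 351). At 0 h, 0 were called (262 at an unadjusted p under 0.05), 126 without the filter, 5 with spike-in scaling and 0 to 38 without single arrays (doxycycline 18 and 36, mutant 24 and 38). For the interaction, 0 were called (197 at an unadjusted p under 0.05), 245 without the filter, 1 with spike-in scaling and 6 to 43 without single arrays (doxycycline 11 and 6, mutant 6 and 43). The causes were not tested. Signals under the floor, such as those of Cnn1 and Flna, limit what can be read.

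Directions turned only where no call was made. With spike-in scaling, time changes turned to -0.00125, -0.0841 and -0.0249 for Actn1 104578_f_at, 104579_r_at and 92280_at, -0.0929 for Tagln and -0.0851 for Cnn2. Outcome at 24 h turned to 0.261 and 0.346 for Actn1 104578_f_at and 92280_at, 0.0727 for Cnn2 and 0.22 for Vcl 94964_at, and outcome at 0 h to -0.0106 for Myl9. The interaction turned to 0.20 for Tpm2, 0.14, 0.26 and 0.30 for Actn1 104578_f_at, 104579_r_at and 92280_at, 0.37 for Tpm1, 0.14 for Acta2 and 0.0179 for Vcl 94963_at, and with quantile normalization to 0.0393 for Tpm1. Without single arrays, time changes lay between -0.0431 and 0.0875 for Actn1 104579_r_at, -0.0169 and 0.172 for Actn1 92280_at and -0.0731 and 0.196 for Tagln. Outcome over both times lay between -0.104 and 0.167 for Actn1 104578_f_at, -0.0387 and 0.133 for Actn1 92280_at and -0.465 and 0.0357 for Myl9. Outcome at 24 h lay between -0.0604 and 0.179 for Actn1 104579_r_at and -0.22 and 0.18 for Actn1 92280_at. Outcome at 0 h lay between -0.12 and 0.19 for Myl9 and -0.0294 and 0.0199 for Vcl 94963_at. The interaction lay between -0.317 and 0.0849 for Actn1 92280_at, -0.12 and 0.16 for Cnn2 and -0.0976 and 0.0181 for Tpm1.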
